A study of Macaca fascicularis with 6 samples.

Results

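Mast cells were sought among the lung cells of 6 male cynomolgus monkeys, 3 to 5 years old, each sampled with 1 single-cell library. The asthma group (replicates 8, 10 and 11) had been sensitized with antigen of the roundworm Ascaris suum, given with adjuvant under the skin, and then challenged with it through the nose, while the control group (replicates 1, 2 and 3) had received saline in place of the antigen. Lung tissue was dissociated with enzymes, red cells were lysed and dead cells were depleted before capture, so no sort enriched the cells described here. RNA molecules were counted by UMI, a short random tag that separates molecules from PCR copies, and a gene is called detected in a cell with at least 1 UMI.

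The cells were chosen by their own counts. A barcode had to have more than 500 and fewer than 5000 genes and at most 25% of its UMIs in 13 mitochondrial protein-coding genes, had to show at least 3 of the 6 genes CPA3, KIT, MS4A2, HPGDS, GATA2 and TPSD1, and had to be at 0 for CD3D, CD3E and C1QA, which mark T cells and macrophages. Of 35133 deposited barcodes, 25388 passed the quality filter, and 106 of these passed the rule (0.418%, 95% exact interval 0.342% to 0.505%, which covers counting error only). The levels of the 6 genes in these cells are therefore a description, and no gene of these cells was tested against the rest.

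Mast cells are long-lived tissue cells that sit around airways and vessels. They store histamine, proteoglycans and proteases in granules, carry the high-affinity receptor for IgE, and depend on the receptor tyrosine kinase KIT and its ligand, stem cell factor. When allergen crosslinks IgE on their surface, they release the granule content and make prostaglandin D2 and cysteinyl leukotrienes, mediators that narrow the airways in asthma.

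The 106 cells were spread unevenly over the libraries. Control replicates 1, 2 and 3 held 2, 8 and 8 of them, and asthma replicates 8, 10 and 11 held 66, 18 and 4. Asthma replicate 8 alone therefore contributed 62.3% of the cells. The cells had a median of 4011 UMIs and 1350.0 genes, close to the 4225.5 UMIs of all quality-controlled cells, and a median of 5.88% of UMIs in mitochondrial genes, against 3.92% in all quality-controlled cells. No cell barcode occurred in more than 1 library among the 106, while 5 to 13 barcodes were shared between any pair of whole libraries.

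All 106 cells had UMIs of CPA3, which encodes the granule protease carboxypeptidase A3, and of MS4A2, the beta subunit of the high-affinity IgE receptor, although the rule required neither. GATA2, a transcription factor of the mast cell and basophil lineages, was detected in 98.1% of them, TPSD1, a tryptase gene, in 81.1%, KIT in 76.4% and HPGDS, the synthase of prostaglandin D2, in 29.2%. The 28 cells with all 6 genes came from control replicate 3 (2 cells), asthma replicate 8 (21 cells) and asthma replicate 10 (5 cells), and 52 cells had 5 of the genes.

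Yet the 106 cells did not carry a single programme. TPSD1 and KIT were missing together in 19 cells, and these 19 differed from the other 87 in many genes that the rule did not use. The control libraries held 0, 1 and 6 of the 19 (replicates 1, 2 and 3) and the asthma libraries 10, 0 and 2 (replicates 8, 10 and 11). They made up 6 of the 8 cells of control replicate 3 but 0 of the 18 cells of asthma replicate 10. In what follows, they are called cells without KIT and TPSD1, and the 87 are called cells with KIT or TPSD1. The split was made after the values were seen, and gene levels of the 19 and the 87 cells are compared without a test.

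**Figure D1:**
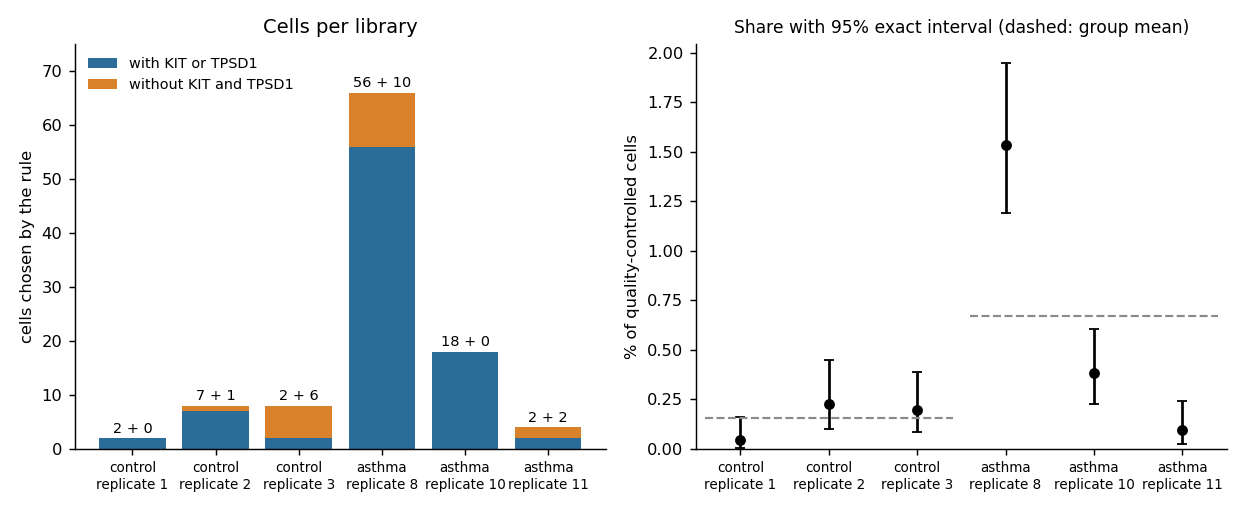
The left panel shows the number of cells chosen by the rule in each library, stacked as cells with KIT or TPSD1 and cells without both, and the right panel shows their share of quality-controlled cells in percent with the 95% exact interval and a dashed line at each group's mean. Asthma replicate 8 stands above every other library at 1.53%, and asthma replicate 11 at 0.0935% lies below control replicates 2 and 3.

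By the ratio of summed levels, the largest difference was that of CLC, the Charcot-Leyden crystal protein galectin-10, known from basophils and eosinophils. It had UMIs in 14 of the 19 cells without KIT and TPSD1 but in 2 of the 87 cells with KIT or TPSD1. Summed over cells, its level was 10056 CPM (UMIs of the gene scaled to 1000000 UMIs of the same cells) against 16.2 CPM. Of all other quality-controlled cells 0.542% had a UMI of it, and of T cells 0.150% did (median depths 4227 and 3793 UMIs). T cells here are cells with CD3D and CD3E, and macrophages cells with C1QA and at least 2 of 4 further markers, both without any of the rule's 6 genes by definition. IL4, the cytokine that drives type 2 immunity, was detected in 12 of the 19 cells, with 25 UMIs, and in 0 of the 87. The median depth was 2030.0 UMIs in the 19 cells and 4221 in the 87. Of T cells 0.633% had a UMI of IL4. A count of 0 in 494738 UMIs allows up to 3 UMIs.

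Further genes set the 19 cells apart. HGF, a growth factor, was detected in 16 of 19 cells against 0 of 87. MTHFD1L, a mitochondrial folate enzyme, was detected in 16 of 19 against 12 of 87. RFLNB reached 1279 CPM against 4.04 CPM, and THY1, F5, VNN2 and AKAP12 had between 504 and 678 CPM in the 19 cells and no UMI in the 87. FCER1A, the alpha subunit of the IgE receptor, was detected in 18 of 19 and 85 of 87 cells, at 5251 and 2573 CPM. Counted per cell on genes chosen for this difference, 15 of the 19 and 0 of the 87 had at least 3 of CLC, HGF, IL4 and MTHFD1L. Among the 19, 2 cells of asthma replicate 8 had none of these genes, so the split by KIT and TPSD1 did not sort every cell. The deeper of them had 10137 UMIs and the other 1164. CPA3 was lower in the 19 cells (3042 against 13227 CPM) and GATA2 higher (2538 against 1047 CPM).

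In the opposite direction, the 87 cells carried HPGD, the enzyme that inactivates prostaglandins, at 2023 CPM in 81 cells, while the 19 cells had 1 UMI of it in 1 cell. CAVIN1, a coat protein of caveolae, was detected in 75 of 87 cells and RGS10, a regulator of G-protein signalling, in 69, and both were at 0 in the 19. CD99 was detected in 85 of 87 cells against 1 of 19, and FCGR1A, the high-affinity IgG receptor, in 74 against 1. An unnamed gene, ENSMFAG00000043035, had UMIs in all 87 cells, at 15228 CPM in the 87 cells, 77.5 CPM in the 19 cells and 3.38 CPM in all other cells.

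**Figure D2:**
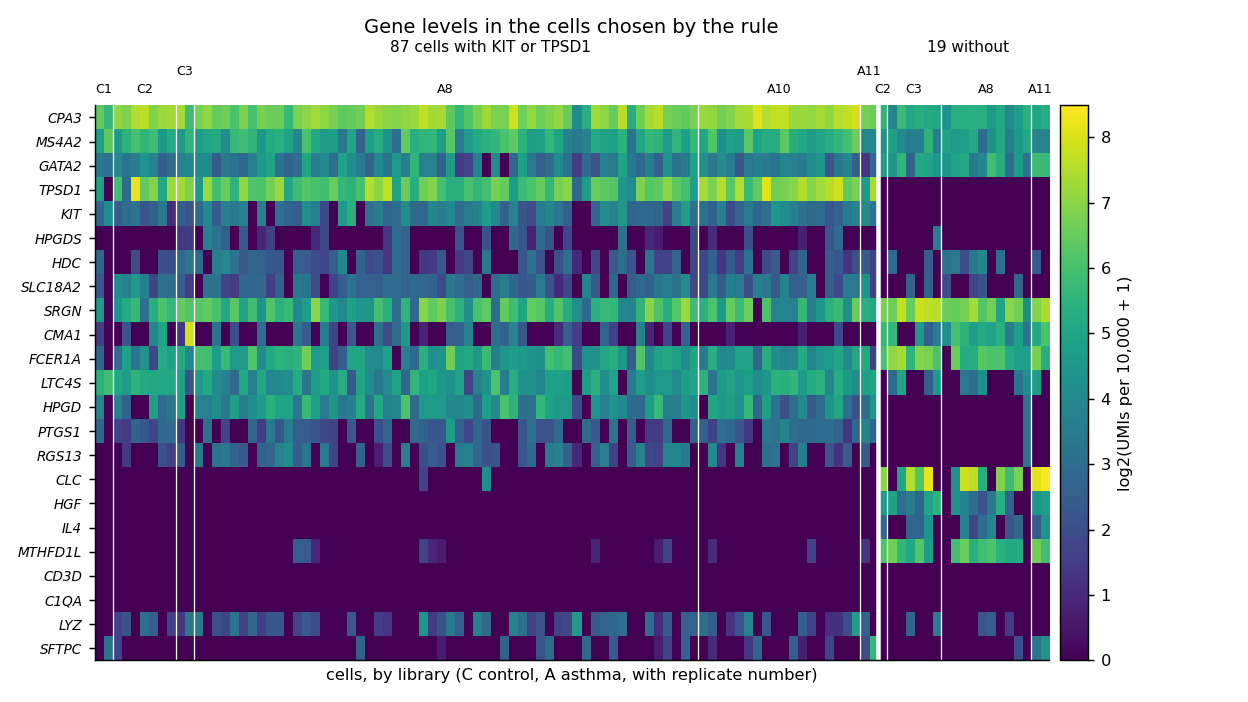
Each column is 1 of the 106 cells and each row 1 gene, with the colour giving log2(UMIs per 10000 + 1), and the cells are ordered by the presence of KIT or TPSD1 and then by library. The 19 columns on the right are dark for TPSD1 and KIT and nearly so for HPGD, and most are bright for CLC, HGF and MTHFD1L, while CPA3 and MS4A2 are lit in all 106.

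The mitochondrial share also differed between the 2 kinds of cell. It had a median of 0.644% in the cells without KIT and TPSD1 and of 6.84% in the cells with KIT or TPSD1. The share lay under 3% in 16 of the 19 and in 9 of the 87 cells. The summed level of 22 immediate-early genes, which respond within minutes to stimulation or handling, was 19317 CPM in the 19 cells, 5397 CPM in the 87 cells and 10170.7 CPM in all other cells. FOS had the most UMIs of them, at 4146 CPM in the 19 cells and 1043 CPM in the 87. Whether depth, mitochondrial share or handling had a part in the split was not tested.

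**Figure D3:**
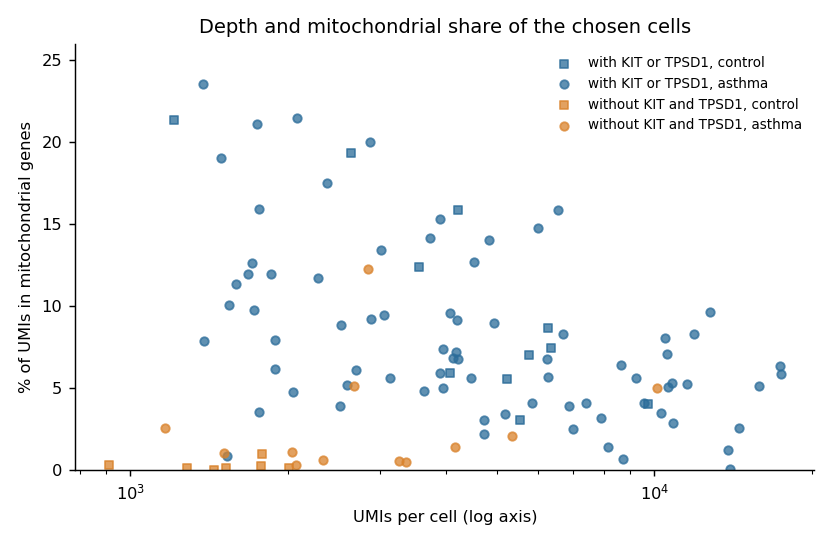
UMIs per cell on a log axis are plotted against the percent of UMIs in mitochondrial genes for each of the 106 cells, with colour for the presence of KIT or TPSD1 and shape for the group. Most cells without KIT and TPSD1 lie along the bottom, with 16 of the 19 under 3%, a median of 0.644% and a median of 2030.0 UMIs.

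KIT and TPSD1 are 2 of the rule's own genes, and CLC, HGF, IL4 and MTHFD1L were chosen because they lead the 19 cells, so their counts describe the split and do not decide which cells are mast cells. The label is used here for the 87 cells with KIT or TPSD1, and was not settled for the 19. Of 4 listed basophil markers with a symbol in the files, CLC was detected, and CCR3, PTGDR2 and CEBPA were at 0 in all 106 cells, as was the eosinophil peroxidase gene EPX. No cell type name was given to the 19. Genes under the symbols IL3RA, MCPT8, PRG2 and SIGLEC8 were not used here. In the cell with the most GZMB (83 of 90 UMIs in the 19 cells), the granule protease of cytotoxic cells, GNLY had 39 UMIs, and no other of the 106 cells had a UMI of GNLY.

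Near the threshold, 18 of the 106 cells had exactly 3 of the 6 genes, and all 18 showed CPA3, MS4A2 and GATA2. Just outside it, 68 cells had exactly 2 of the genes, and 59 of those showed KIT with GATA2. These 59 cells had no UMI of CPA3, MS4A2, FCER1A or HDC, but 54 had PECAM1, 52 had VWF and 59 had RAMP2, markers of endothelial cells. At least 3 of 6 endothelial markers were detected in 58 of these 59 cells and in 2 of the 106. The 59 cells came from control replicate 1 (1 cell) and from asthma replicates 8, 10 and 11 (20, 17 and 21 cells).

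Levels of the rule's genes varied between libraries as follows. CPA3 in the chosen cells was at 7769, 14307 and 7868 CPM in control replicates 1, 2 and 3 and at 11327, 15950.3 and 8354 CPM in asthma replicates 8, 10 and 11. The groups overlapped. TPSD1 was at 2331, 9882 and 7774 CPM in the control libraries and at 7184, 14756 and 6233 CPM in the asthma libraries, and again overlapped. MS4A2 ranged from 1414 CPM in asthma replicate 11 to 4452 CPM in asthma replicate 10, and KIT from 237 CPM in control replicate 3 to 964 CPM in asthma replicate 11. All of these levels sum over both kinds of cell. Cells without KIT and TPSD1 were 6 of the 8 cells of control replicate 3 and 2 of the 4 cells of asthma replicate 11. Control replicates 1 and 2 and asthma replicate 11 had no UMI of HPGDS. In the 87 cells, the 30 with HPGDS had a median of 5694.5 UMIs and the 57 without it 4122. Whether depth had a part in the detection of HPGDS was not tested. These are 3′ counts not divided by gene length. Libraries with 2 or 4 cells rest on 6436 and 15562 UMIs.

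Counts of listed genes leave out the rule's own genes, which the choice of cells raised. The granule list held 6 such genes with a symbol in the files. Of these, 4 were higher in the chosen cells than in all other cells in every one of the 6 libraries (CMA1, SRGN, HDC and SLC18A2). Of 4775 genes detected in at least 10% of the chosen cells, called detected genes below, 194 (4.06%) were higher in this way. The lists were not limited to detected genes. For CMA1, the higher level rested on 1 UMI in control replicate 1, and in asthma replicate 11 only on cells without KIT and TPSD1. Mean levels were 10929 ± 3543 CPM for CPA3 (SD, n = 6 libraries) and 8027 ± 4127 CPM for TPSD1. SRGN, the proteoglycan core of the granule matrix, was at 6067 ± 3287 CPM against 1146 ± 140.0 in all other cells. SLC18A2, which loads histamine into granules, was at 629 ± 319 CPM, HDC, which makes histamine, at 375 ± 128 CPM, and CMA1, the chymase, at 1647 ± 2711 CPM, the widest spread of the 6 relative to its mean. TPSG1, another tryptase gene, had 21 UMIs, all in cells with KIT or TPSD1, and CTSG, cathepsin G, had none. HDC stood at 0.121 CPM in all other cells, and 17 of those 25282 cells had a UMI of it.

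The CMA1 UMIs were concentrated in few cells and libraries. The gene was detected in 38 of the 87 cells with KIT or TPSD1 and in 17 of the 19 cells without both, and 9.77% of all other cells and 15.9% of T cells had a UMI of it. In the 87 cells it had 245 UMIs, of which 136 fell in 1 cell of control replicate 3. Its UMIs in these cells numbered 1, 27 and 137 in the control libraries (replicates 1, 2 and 3) and 76, 4 and 0 in the asthma libraries (replicates 8, 10 and 11). In asthma replicate 10 it was detected in 3 of 18 cells, and in asthma replicate 8 in 29 of 56.

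Of 15 genes of the IgE receptor and its proximal signalling, without MS4A2, 5 were higher than in all other cells in all 6 libraries. These were FCER1A, FCER1G, LAT, LAT2 and BTK, beside the 4.06% of detected genes given above. FCER1A was at 466, 2305 and 6115 CPM in control replicates 1, 2 and 3 and at 2797, 2516 and 3599 CPM in asthma replicates 8, 10 and 11. The highest value belonged to control replicate 3, the library in which 6 of 8 cells lacked KIT and TPSD1. Of the adaptors that pass the receptor's signal on, LAT2 reached 883 ± 254 CPM (SD, n = 6) against 108 ± 21.3 in all other cells, LAT 534 ± 139 against 83.6 ± 20.1, and BTK, a Tec family kinase, 390 ± 133 against 39.5 ± 4.78. FCER1G, the gamma chain, was only slightly above the rest (2380.0 ± 382 against 1820 ± 190.3), and macrophages held more of it (3278 CPM summed over cells). Summed over cells, the kinases nearest to the receptor were not above the rest, with LYN at 135 against 143 CPM, SYK at 65.9 against 78.2 CPM and FYN at 5.49 against 42.7 CPM. PLCG1, a phospholipase, was at 0, while PLCG2 had 40 UMIs, all in the 87 cells.

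Enzymes of lipid mediators formed the third group. Of 9 listed genes, without HPGDS, 5 were higher than in all other cells in all 6 libraries, beside 4.06% of detected genes. LTC4S, which makes leukotriene C4, was at 4661, 3179 and 1279.8 CPM in control replicates 1, 2 and 3 and at 1958, 2602 and 2570.4 CPM in asthma replicates 8, 10 and 11, against a mean of 40.9 ± 9.20 CPM in all other cells. HPGD was at 1088, 848 and 806 CPM in the control libraries and at 2001, 1996 and 964 CPM in the asthma libraries, so that asthma replicate 11 fell among the controls. PTGS1, the constitutive cyclooxygenase, was at 440.4 ± 245 CPM and PTGS2, the inducible one, at 297 ± 189, against 13.3 ± 4.29 and 44.6 ± 11.2 in all other cells. ALOX5 and ALOX5AP, which start leukotriene synthesis, were at 408 ± 204 and 303 ± 179 CPM. All of these except ALOX5AP were lower in the 19 cells without KIT and TPSD1.

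**Figure D4:**
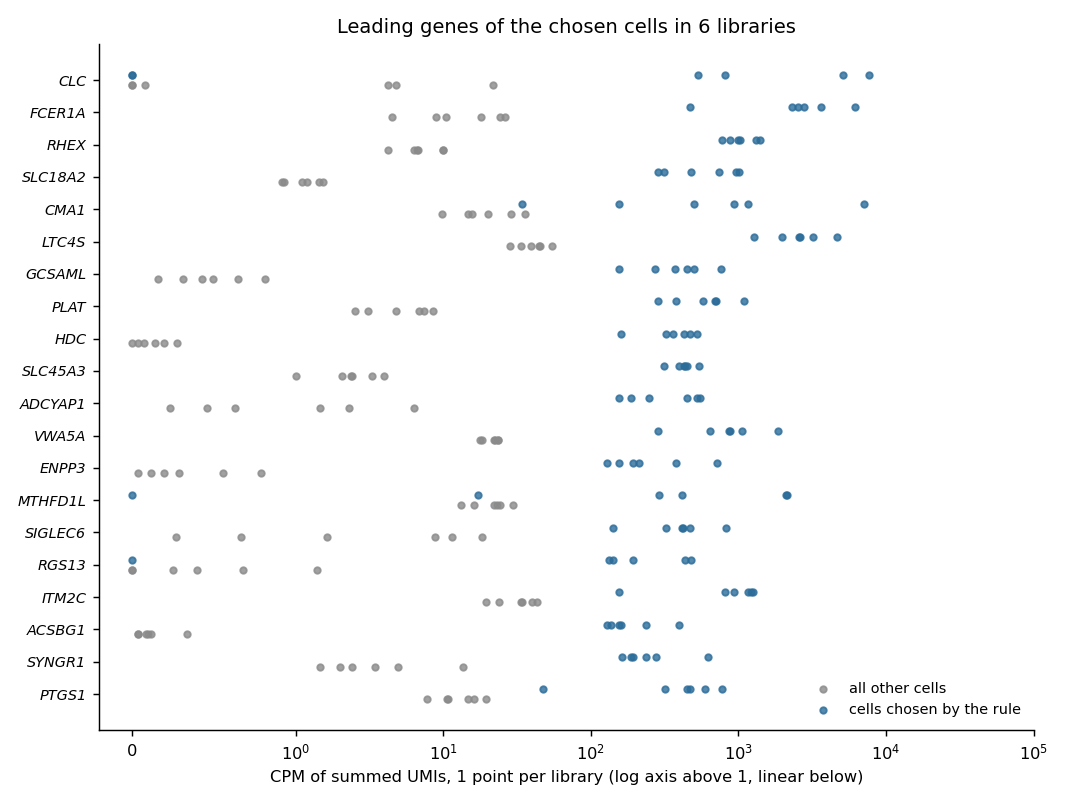
The 20 genes with the largest ratio of the chosen cells to all other cells, among genes with a symbol that the rule did not use, are shown as CPM of summed UMIs, 1 point per library, with a log axis above 1 CPM and a linear one below. For 17 of the 20 genes the chosen cells lie above all other cells of the same library in all 6 libraries, and CLC, MTHFD1L and RGS13 reach 0 in at least 1 library.

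Leaving out the rule's genes and genes without a symbol, the 20 leading genes by the ratio of mean CPM with 10 CPM added began with CLC, FCER1A, RHEX, SLC18A2, CMA1, LTC4S, GCSAML, PLAT, HDC and SLC45A3. RHEX, a regulator of erythropoietin receptor signalling, was even across libraries, at 1065 ± 247 CPM against 7.30 ± 2.26 in all other cells. PLAT, tissue plasminogen activator, had 621 ± 285 CPM, with 259 of its 262 UMIs in the 87 cells. ADCYAP1, a neuropeptide precursor, VWA5A, ENPP3, an ectoenzyme of mast cells and basophils, SIGLEC6, an inhibitory lectin, RGS13, ITM2C, ACSBG1, SYNGR1 and PTGS1 followed, together with MTHFD1L. CLC and MTHFD1L were carried by the 19 cells, with 519 of 527 and 219 of 234 UMIs. ACSBG1 was at 0 in the 19 cells, and ENPP3 and RGS13 had 1 UMI each there.

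The list of growth factor, cytokine and mediator receptors held 17 genes with a symbol, without KIT. Of these, 1 was higher than the rest in all 6 libraries, P2RX1, an ATP-gated channel. This count is near the 4.06% of detected genes. IL9R, the IL-9 receptor, was at 73.0 ± 64.8 CPM against 0.747 in all other cells, and IL1RL1, the IL-33 receptor, had 12 UMIs in 9.43% of the 106 cells. IL7R and CYSLTR2 were at 0. Of 7 inhibitory genes, SIGLEC6 was higher in all 6 libraries, and CD33 and LILRB4 were at 0. Among 12 transcription factors, without GATA2, LMO4, BHLHE40 and MITF were higher in all 6 libraries (3 genes), and GATA1 had 82.4 CPM against 0.0508 in all other cells. Of 14 degranulation genes, 4 were higher in all 6 libraries, beside 4.06% of detected genes. These were STX3, STXBP2, RAB27B and CD63, a granule membrane protein. CD63 was at 3806 ± 468 CPM against 1490.1 ± 299.

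The summed level of the cytokine list was 629 CPM in the 87 cells, 2499 CPM in the 19 cells and 1199 CPM in all other cells. Of 20 cytokine genes in the files, 6 were at 0, namely IL3, IL5, IL9, IL31, AREG and CCL1, each of which a count of 0 in 546350 UMIs limits to 3 UMIs. IL13 had 12 UMIs in 2 cells, 11 of them in 1 cell of asthma replicate 8. TGFB1 had the most UMIs of the list, at 302 ± 102 CPM, below the 352 ± 45.4 CPM of all other cells, and CSF1 was higher than the rest in all 6 libraries. OSM had 54 of its 66 UMIs in the 19 cells. Of 14 interferon-stimulated genes and 8 heat shock genes, 0 were higher than the rest in all 6 libraries. Lists of this size cannot set these counts apart from the 4.06% of detected genes. The summed level of the interferon list was 346 CPM against 1021 CPM in all other cells.

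Apart from the basophil and eosinophil lists, which CLC led, T and NK cell markers had the highest summed level of the lists of other lineages, with 688 CPM over the 106 cells against 3161 CPM in all other cells, and 8 of 10 genes detected. CD3D and CD3E were at 0 by the rule, and CCL5, a chemokine of cytotoxic lymphocytes, had the most UMIs. The sum was 466, 1431 and 237 CPM in the control libraries (replicates 1, 2 and 3) and 718, 375 and 1285 CPM in the asthma libraries (replicates 8, 10 and 11). It was 1860 CPM in the 19 cells without KIT and TPSD1, where 39 UMIs of GNLY came from 1 cell, and 566 CPM in the 87. The part of these markers in the results was not tested. Among macrophage markers the summed level was 474 CPM over the 106 cells, with 8 of 9 genes detected, led by APOE at 256 CPM, against 22942 CPM in macrophages. LYZ was at 399 CPM against 5442 CPM in all other cells, and SFTPC at 98.8 against 6426 CPM. Its level reached 1928 CPM in asthma replicate 11, which rests on 4 cells. Dendritic and megakaryocyte markers were at 0. In 7 of the 106 cells, at least 2 markers of 1 other class had 2 or more UMIs each.

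Whether the asthma model changed the share of these cells was asked over libraries, each of which is 1 monkey. Every p measures the spread between libraries, in which animal and sample preparation cannot be told apart. The share of quality-controlled cells was 0.0444%, 0.228% and 0.197% in the control libraries (replicates 1, 2 and 3) and 1.53%, 0.381% and 0.0935% in the asthma libraries (replicates 8, 10 and 11). Their 95% exact intervals ran from 0.00537% to 0.160%, from 0.0984% to 0.448% and from 0.0850% to 0.387% in the control libraries, and from 1.19% to 1.95%, from 0.226% to 0.602% and from 0.0255% to 0.239% in the asthma libraries. The groups overlapped, since asthma replicate 11 lay below control replicates 2 and 3. Means were 0.156% ± 0.0982 in the control group and 0.669% ± 0.762 in the asthma group (SD, n = 3 each). The difference of 0.513 percentage points was within the spread of the libraries (two-sided exact permutation test over 20 assignments, p = 0.3, where the smallest possible p is 0.1). Without asthma replicate 8 the difference was 0.0811 points.

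Split by kind, the cells with KIT or TPSD1 were 0.0444%, 0.199% and 0.0492% of cells in the control libraries and 1.30%, 0.381% and 0.0468% in the asthma libraries, a difference of 0.479 points (exact permutation p = 0.3). Those without both differed by 0.0343 points (exact permutation p = 0.7). Counting every cell with at least 2 of the 6 genes gave a difference of 0.948 points with groups that did not overlap (exact permutation p = 0.1). Of the 68 cells that this adds, 59 were the cells with KIT and GATA2 that carried endothelial markers.

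Levels over whole libraries were compared as well. Summed over all quality-controlled cells, CPA3 was at 3.43, 21.3 and 6.16 CPM in control replicates 1, 2 and 3 and at 131, 70.5 and 5.28 CPM in asthma replicates 8, 10 and 11. The values were high in asthma replicates 8 and 10, and replicate 11 fell among the controls. TPSD1 was at 0.742, 14.7 and 5.88 CPM and at 82.8, 64.1 and 3.93 CPM. The 106 cells held 91.8% of all CPA3 UMIs, 92.2% of TPSD1 and 88.7% of MS4A2, so that these values largely repeat the number of chosen cells and are no separate support. Differences of CPA3, TPSD1 and MS4A2 each had an exact permutation p of 0.3 (0.375 after Benjamini-Hochberg adjustment over the 10 genes tested).

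KIT, GATA2, HPGDS and LTC4S were higher in all 3 asthma libraries than in every control library over whole libraries, each with the smallest possible exact permutation p of 0.1 and an adjusted p of 0.25. How many of all genes separate the libraries in this way was not counted, so nothing about mast cells is read from the separation. GATA2 was at 3.14, 4.62 and 10.7 CPM in the control libraries and at 32.4, 20.9 and 27.0 CPM in the asthma libraries. But the 106 cells held only 22.4% of its UMIs, while 1894 other cells with at least 3 endothelial markers held 71.4%. Those cells were 3.08%, 4.22% and 4.77% of quality-controlled cells in the control libraries (replicates 1, 2 and 3) and 9.71%, 8.01% and 14.4% in the asthma libraries (replicates 8, 10 and 11). For LTC4S the chosen cells held 14.2% of UMIs and the cells with endothelial markers 39.6%, and for KIT these values were 53.1% and 19.0%. For HPGDS they were 23.1% and 5.33%.

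**Figure D5:**
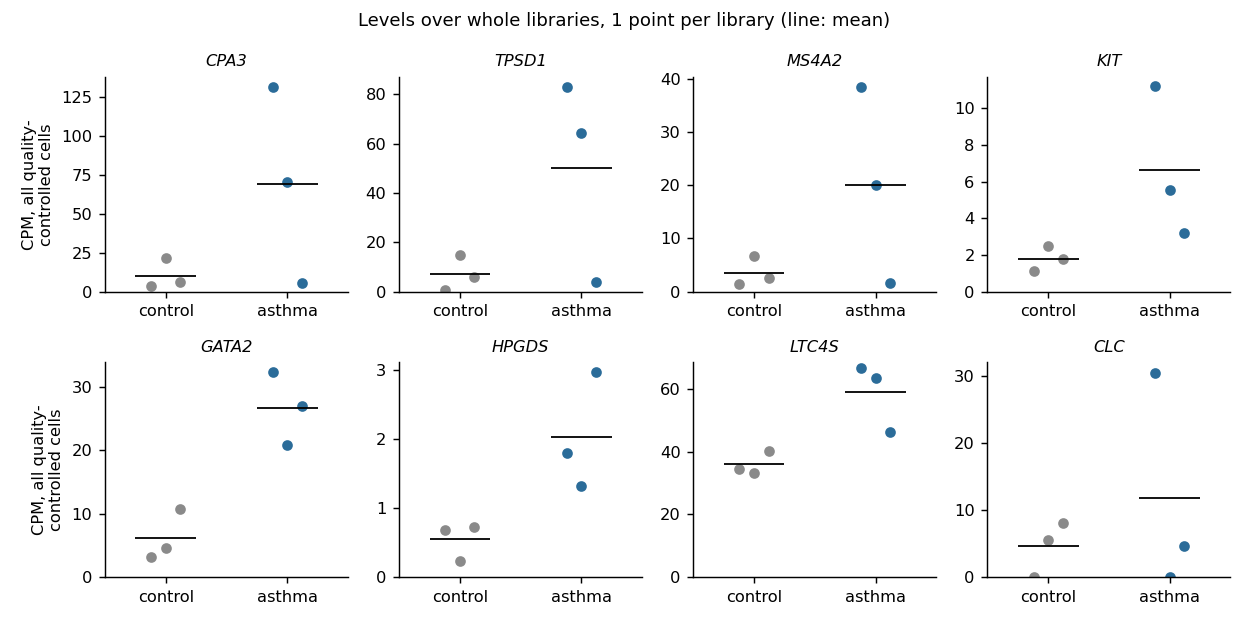
Levels of 8 genes in CPM over all quality-controlled cells are plotted as 1 point per library, 3 per group, with a line at the mean and each axis starting at 0. CPA3, TPSD1 and MS4A2 are high in asthma replicates 8 and 10 but not in replicate 11, whereas GATA2, KIT, HPGDS and LTC4S separate the groups and CLC is at 0 in 1 library of each group.

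Gene expression of the chosen cells was compared between the groups on UMIs summed per library in the 4 libraries with at least 5 such cells, control replicates 2 and 3 (8 cells each) and asthma replicates 8 and 10 (66 and 18 cells). No gene passed: 0 of 1068 genes tested (0%) had an adjusted p under 0.05 with an absolute log2 fold change over 0.25 in edgeR's quasi-likelihood test, while 47 had an unadjusted p under 0.05. DESeq2 called 0 as well, with 18 at an unadjusted p under 0.05. In all other cells of the same libraries 0 of 14424 genes (0%) were called, with 1778 at an unadjusted p under 0.05, although DESeq2 called 602. The test of whether the change differed between the chosen and all other cells called 0 of 1068 genes (0%). Of the 1068 genes, 53 had an unadjusted p under 0.05 in that test. Each control library held 8 of the chosen cells. A count of 0 called genes does not show that no gene changed, and what limited the count was not tested.

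The kinds of cell were not balanced in this comparison, since cells without KIT and TPSD1 were 1 of 8 and 6 of 8 in the control libraries and 10 of 66 and 0 of 18 in the asthma libraries. With asthma replicate 8 left out, 8 genes were called, all lower in asthma, among them CLC, HGF, MTHFD1L, RFLNB and CMA1, each of which had a higher level in the 19 cells without KIT and TPSD1. A change within cells and a change in the mixture cannot be told apart in these sums. Leaving out control replicate 2 gave 85 called genes, 60 higher and 25 lower. All counts over the 1068 genes include CPA3, KIT, MS4A2, GATA2 and TPSD1 of the rule, of which CPA3 and KIT are among the 85, and nothing is read from these.

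Of the genes whose libraries did not overlap between the groups, those with the smallest unadjusted p are given by direction, none of them called. Lack of overlap served only to choose which genes to name. How many of the genes tested had it was not counted, and it is not read as support. RGS13, which inhibits G-protein signalling and is known from mast cells, was at 132 and 142 CPM in control replicates 2 and 3 and at 434 and 478 CPM in asthma replicates 8 and 10, a log2 fold change of 1.72 (SE 0.653, edgeR adjusted p = 0.931). It rested on 5 and 3 UMIs in the control libraries, and 1 of its 218 UMIs in the 106 cells lay in the 19 cells. Without control replicate 2, which leaves control replicate 3 with 6 of its 8 cells among the 19, the log2 fold change of RGS13 was 2.15. SKIL (2.54), CCT8 (2.31), DST (2.61) and RPN1 (3.19) had higher log2 fold changes but 0 to 2 UMIs per control library. The fitted value of DST was 8.12 without control replicate 2 and that of RPN1 7.78 without control replicate 3, where the remaining control library was at 0 and the value is no bound. In the other direction LMO2, a partner of GATA and TAL1 factors, was at 212 and 190 CPM in the control libraries and at 51.7 and 42.6 CPM in the asthma libraries, a log2 fold change of -2.04 (SE 0.709, edgeR adjusted p = 0.931). ARL6IP6 (-1.97), RFLNB (-3.54), ATRAID (-1.74) and CSF1 (-1.68) had the same adjusted p. For RFLNB the log2 fold change was -3.93 without control replicate 2, -2.16 without control replicate 3 and -5.86 without asthma replicate 8. For CSF1 it was -1.09 without control replicate 2.

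Listed genes outside the rule showed no shift that passed the test. Of 4 granule genes tested 0 were called, with a median log2 fold change of -0.31 beside 0.01 over all genes tested. Of 5 genes of the IgE receptor list 0 were called (median -0.51), and of 7 eicosanoid genes 0 (median 0.41). HPGD had a log2 fold change of 1.27 (SE 0.527, edgeR adjusted p = 0.931), and CMA1 of -3.80 (SE 1.69, edgeR adjusted p = 0.931). Of the 150 CMA1 UMIs of control replicate 3, 136 came from 1 cell, and without asthma replicate 8 the log2 fold change was -6.66 (edgeR adjusted p = 0.0056). LTC4S stood at 0.00 (SE 0.547). The other lists, with 1 to 12 genes tested, also had 0 called. Without control replicate 2, the only control library was replicate 3, with 6 of its 8 cells among the 19 without KIT and TPSD1. Log2 fold changes of listed genes named from that fit were 1.79 for HPGD, 3.67 for PTGS1 and 2.56 for SIGLEC6. They were -1.97 for CSF2RB and -4.13 for CMA1, and 8.30 for ABCC4, no bound, since control replicate 3 was at 0. Of the 19 cells, 1 had HPGD, 1 PTGS1, 3 SIGLEC6 and 17 CMA1. In cells with KIT or TPSD1 of all 6 libraries, HPGD had a log2 fold change of 0.71 (edgeR adjusted p = 0.994).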

How the data were processed

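The authors used Cell Ranger with the genome build macFas6 on 10x 3′ libraries, and the matrices they deposited hold raw UMI counts per gene and barcode. No correction for free RNA was made here. The submitters' processing notes name version 2.1.1 and the matrix headers 4.0.0. Of the genes, 21095 carry a symbol, and the 7528 others are given by ID or not at all. The authors' cell annotation was not used here. Quality-controlled cells of a library held between 25566619 and 35023716 UMIs, which limits precision together with the number of cells.

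The rule for the cells, the gene lists and the split by KIT and TPSD1 were chosen with earlier results of these data known. No doublet caller was run. Barcodes with CD3D, CD3E or C1QA were left out by the rule. CPM were computed from UMIs summed per library. Shares were compared with exact permutation tests. Sums were tested with edgeR 4.0.16 (quasi-likelihood, TMM, filterByExpr, Benjamini-Hochberg) in R 4.3.3, with DESeq2 1.42.0 as an alternative. The standard error is the log2 fold change divided by the normal quantile of its p. The planned fit needed at least 10 cells per library, which 0 control libraries had, so the fit of libraries with at least 5 is reported. Other steps used Python 3.11.15 with numpy 2.4.6, scipy 1.17.1, pandas 2.3.3 and matplotlib 3.10.9. The fit was tested on simulated data.

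Named genes were the rule's genes, the 20 leading genes, up to 5 genes in each direction with the smallest p among genes without overlap (given as not called), the most abundant, called or undetected list members, and the genes that lead either kind of cell, which were chosen after their values were seen. No sequence is shown, since no sequence table was used here. Alternatives for the share and the fits were a mitochondrial maximum of 10%, at least 2 or 4 of the 6 genes, no exclusion genes, no mixed cells, at least 200 genes with no maximum, and each library left out. For the share, cells thinned to 2000 UMIs and another denominator were added. For the fits, other size factors and no filter on low counts were added. Alternatives with all 6 libraries or by kind of cell, and those for all other cells, for the difference between the changes and for whole libraries, were chosen after seeing the data. Where leaving out a library left a group with 1, that library was assumed to vary like the others.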

Additional observations from a re-analysis of the deposited data

Results flagged for a closer look

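Signals also appeared outside the 106 chosen cells. Each was in a larger share of cells in the asthma group than in the control group as a whole. The groups overlapped by library, since asthma replicate 11 had 0 of these cells in each of the 3 sets. Among quality-controlled cells left out only because of CD3D, CD3E or C1QA, 12 cells of the asthma libraries showed at least 3 of the 6 genes (6 each in asthma replicates 8 and 10), against 1 cell of the control libraries (in replicate 1). Their shares were 0.0902% and 0.00827% of quality-controlled cells. These 13 cells had a median of 11665 UMIs, against 4011 in the 106 cells, and 6 of them had CD3D or CD3E and 8 had C1QA. Whether they were doublets was not tested.

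Among barcodes that failed the quality filter, 10 of 5198 in the asthma libraries (0.192%) and 4 of 4547 in the control libraries (0.0880%) showed at least 3 of the 6 genes. The control libraries held 3, 1 and 0 of them (replicates 1, 2 and 3) and the asthma libraries 4, 6 and 0 (replicates 8, 10 and 11). Of these 14 barcodes, 8 had too few genes, 2 too many and 9 a mitochondrial share over 25%.

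CLC also appeared outside the chosen cells. At least 5 UMIs of it were found in 33 other quality-controlled cells of the asthma libraries, all in replicate 8, and in 18 of the control libraries, 8 in replicate 2 and 10 in replicate 3.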

How the results depend on the processing

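The difference in share kept its direction under all 16 alternatives, between 0.0343 (cells without KIT and TPSD1) and 0.948 points (at least 2 of the 6 genes), and between 0.0811 and 0.801 points with each library left out. It was 0.542 points with cells thinned to a fixed depth. The count of genes called between asthma and control moved from 0 to 1 with no exclusion genes (APOE, a macrophage gene) and to 3 with no filter on low counts (CMA1, RFLNB and ENSMFAG00000045600, all lower in asthma), genes named after their values were seen. With each library left out it ranged from 1 to 85: 85 without control replicate 2, 1 without control replicate 3 (ENSMFAG00000045600), 8 without asthma replicate 8 and 2 unnamed genes without asthma replicate 10. In all other cells the count moved from 0 to 602 with DESeq2 and to 22 with all 6 libraries, and ranged from 0 to 1 with each library left out (1 without control replicate 3). The count for the difference between the changes ranged from 0 to 89 with each library left out (89 without control replicate 2, 22 without control replicate 3 and 1 without asthma replicate 8). Why these counts moved was not tested. Other alternatives gave 0. The fit with at least 4 of the 6 genes was not run, since 1 control library had 5 such cells or more. LMO2 reversed to a log2 fold change of 0.44 with at least 2 of the 6 genes, a setting that adds the cells with endothelial markers and also asthma replicate 11, and the cause was not tested. Values under alternatives were tallied for RGS13, SKIL, CCT8, DST, RPN1, LMO2, ARL6IP6, RFLNB, ATRAID and CSF1 only. Of these 97 values, 91 kept their direction and stayed uncalled. Another 5 became called, some of them in fits that left 1 library in a group. Other named genes, such as CMA1 and HPGD, were not in this tally. No paired analysis was possible because the groups share no replicate number. Comparisons of the chosen cells between groups rest on 2 to 18 of them in 5 of 6 libraries. Whether the number of cells limits these comparisons was not tested.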

Other observations

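The 51 other cells with at least 5 CLC UMIs were unlike the 19 cells described above. They had a median of 13933 UMIs, and 42 of them had EPCAM, an epithelial adhesion molecule. SFTPC, the surfactant protein gene of alveolar epithelium, was detected in 39 of the 51 cells, at 128507 CPM summed over them. SCGB3A1, a secretoglobin of airway epithelium, was detected in 12 of the 51 (29309 CPM) and SCGB1A1 in 15 (13743 CPM). MS4A2 and IL4 were at 0 there, while CLC itself was at 1038 CPM, against 10056 CPM in the 19 cells. In all other cells of control replicate 1 and asthma replicate 10, CLC had 0 UMIs. These libraries also held 0 of the 19 cells. CLC had 121 and 118 UMIs in the other cells of control replicates 2 and 3, 653 in those of asthma replicate 8 and 2 in those of replicate 11.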
